A study of Homo sapiens with 12 samples.

Results

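TXNIP and the alpha-arrestins ARRDC1, ARRDC2, ARRDC3 and ARRDC4 were followed in HK-2, a line of human kidney proximal tubule epithelium immortalized in culture. The members were 5 named genes of this family, and every probe set annotated with 1 of those symbols alone was taken, 8 of the 54675 on the array, for 5 of 19775 named genes. TXNIP was selected on its log2 expression values on these arrays, namely its fall after 24 h of treatment and its fall with culture time in control cells, so its values are a description and carry no test. The other 4 genes were taken as the rest of the family. Transcripts were measured on 12 Affymetrix arrays in 4 groups of 3 biological replicates. These were cells given a low dose of Kbr for 24 h or for 48 h, and control cells given the vehicle for the same times. All cells were grown in a serum-free type of medium with epidermal growth factor, hydrocortisone, insulin, transferrin and selenite, and were treated near confluence. Neither the full name of Kbr nor its concentration is stated in the labels.

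Alpha-arrestins are adaptor proteins with an arrestin fold that bring ubiquitin ligases of the NEDD4 family to membrane proteins and so control their uptake and breakdown. TXNIP, the thioredoxin-interacting protein, also binds and inhibits thioredoxin and lowers glucose uptake by acting on the transporter GLUT1. Its transcription is known to follow glucose metabolites through the factors MondoA (MLXIP) and ChREBP (MLXIPL) with their partner MLX, which bind paired E-boxes in its promoter, and ARRDC4 is a known target of the same factors.

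Values are GCRMA expression values on the log2 scale, so a difference of 1 is a 2-fold change. Array medians lay between 2.91 and 2.99, arrays of the same group correlated at 0.982 to 0.993 over the tested genes, and precision is limited by having 3 arrays a group. Values below a log2 value of 4, the filter floor, were treated as too low to order, because GCRMA pulls weak probe sets to a floor. Genes above it on at least 3 arrays were tested, 10665 in all. All 6 general epithelial markers were above this floor, while 11 of 12 proximal tubule markers on the array were not, SLC3A1 being the exception. No marker of other nephron segments, endothelium or leukocytes passed the floor. Of 6 fibroblast markers COL1A1, DCN and LUM did. The 3′ to 5′ signal difference of ACTB, a sign of RNA quality, lay between 0.674 and 0.992 in 24 h vehicle cultures, 0.748 and 0.975 in 24 h Kbr cultures, 0.697 and 1.04 in 48 h vehicle cultures and 0.779 and 1.07 in 48 h Kbr cultures, on the log2 scale.

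Of the 8 probe sets, 6 lay above the floor on at least 3 arrays. These were the 3 of TXNIP and 1 each of ARRDC1, ARRDC2 and ARRDC3. The second ARRDC1 probe set, 234607_at, stood at 2.45 to 2.49 on all 12 arrays, and the ARRDC4 probe set was above the floor on 0 of 12. Thus 4 of the 5 genes passed the filter. ARRDC1, ARRDC2 and ARRDC3 were tested, TXNIP is described only, and ARRDC4 was below the floor. Levels of different probe sets are not compared with each other, since each has its own response.

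TXNIP lies on chromosome 1, at 145992435 to 145996579 on the minus strand (RefSeq, GRCh38.p14). The 250 bases before its annotated start, chr1:145996580-145996829, are printed because they hold the paired E-box through which this gene is known to be controlled, and those of ARRDC4, chr15:97960453-97960702 on the plus strand, because it is the other family member with that known control. Capitals mark matches, on either strand, to the E-box CACGTG, to its variant CACGAG, to a paired E-box spelled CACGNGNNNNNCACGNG, to the box CCAAT or to the forkhead motif GTAAACA.
TXNIP: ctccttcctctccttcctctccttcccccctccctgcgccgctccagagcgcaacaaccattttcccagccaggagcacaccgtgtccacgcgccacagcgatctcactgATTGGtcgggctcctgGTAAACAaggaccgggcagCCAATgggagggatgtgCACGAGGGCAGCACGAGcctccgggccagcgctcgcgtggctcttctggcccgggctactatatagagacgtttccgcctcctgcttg
ARRDC4: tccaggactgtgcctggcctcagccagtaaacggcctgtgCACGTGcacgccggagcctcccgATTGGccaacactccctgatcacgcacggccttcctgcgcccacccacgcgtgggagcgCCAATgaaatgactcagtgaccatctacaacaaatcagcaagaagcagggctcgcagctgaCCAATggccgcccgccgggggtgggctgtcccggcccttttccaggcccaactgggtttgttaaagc
The TXNIP window holds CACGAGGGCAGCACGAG, a match to the paired motif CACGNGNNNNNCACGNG that includes both of its CACGAG matches, from 88 to 72 bases before the start. Among 35114 RefSeq windows of the same length, 0.0456% hold the paired motif on either strand. The TXNIP window also holds 2 CCAAT boxes, found in 32% of windows, and 1 forkhead motif GTAAACA, found in 2.98%. ARRDC4 has 1 E-box CACGTG, found in 6.35% of windows, and 3 CCAAT boxes, and no match to the paired motif as spelled here. The outer-start windows of ARRDC1 and ARRDC3 hold 1 CCAAT box each and that of ARRDC2 none of these motifs. These matches describe letters in a window and say nothing of binding in these cells.

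TXNIP was high in control cells at 24 h and lower in every other group. On its brightest probe set, 201008_s_at, the 24 h vehicle cultures stood at 9.45, 9.87 and 9.19 for replicates 1, 2 and 3. The 24 h Kbr cultures stood at 6.83, 7.36 and 8.00. All 3 treated arrays were below all 3 controls. The 48 h vehicle cultures stood at 4.67, 6.74 and 7.18, so replicate 1 was far below the other two and the group was wide. The 48 h Kbr cultures stood at 3.43, 3.47 and 3.43, below the floor on 3 of 3 arrays, and did not overlap with any other group. In a bulk culture, fewer cells with the transcript and less transcript per cell cannot be told apart.

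**Figure D1:**
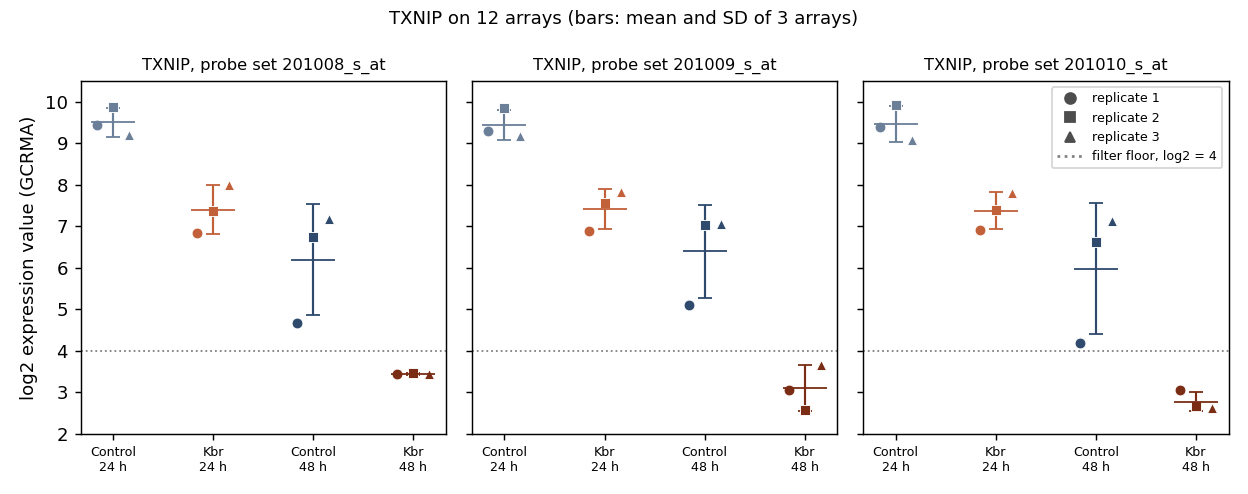
TXNIP log2 expression value (y axis) on each of 12 arrays by group (x axis), for its 3 probe sets; points are arrays shaped by replicate number, bars the mean and SD of 3 arrays, and the dotted line the floor of 4. Controls at 24 h are highest and treated cells at 48 h lie below the floor on all 3 probe sets, with replicate 1 of the 48 h vehicle cultures low on each.

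In order, the TXNIP means were 9.50 ± 0.34 (SD, n = 3) in 24 h vehicle cultures, 7.40 ± 0.58 in 24 h Kbr cultures, 6.20 ± 1.34 in 48 h vehicle cultures and 3.45 ± 0.022 in 48 h Kbr cultures. The 24 h Kbr cultures and the 48 h vehicle cultures, neighbours in this order, overlapped and did not differ beyond their spread, whereas the other neighbours did not overlap. The other 2 probe sets of TXNIP gave the same order. Probe set 201009_s_at averaged 9.44 ± 0.35, 7.42 ± 0.49, 6.39 ± 1.12 and 3.10 ± 0.55 in these groups, and 201010_s_at 9.47 ± 0.43, 7.37 ± 0.45, 5.98 ± 1.57 and 2.78 ± 0.24. The 3 probe sets report on 1 transcript from the same RNA and are not replicates.

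The first question was how TXNIP differed between treated and control cells of the same time. At 24 h it was 4.30-fold lower in treated cells (log2 difference -2.11, standard error 0.53), the difference being -2.61, -2.51 and -1.19 in replicates 1, 2 and 3. This was the 6th most negative of the 10665 differences. TXNIP was selected on this fall, so the rank is a description only. At 48 h the treated arrays lay below the floor, so the difference is given as a bound, the mean of the controls against the floor of 4, and TXNIP was at least 4.58-fold lower. The other probe sets gave bounds of at least 5.25-fold and 3.95-fold. Without replicate 1 of the controls, the low one, the bound of 201008_s_at was at least 7.77-fold, and without replicate 3 at least 3.26-fold. On 201010_s_at it was at least 2.65-fold without replicate 3. Replicate 1 of the controls, at 4.67 and 4.19 on these probe sets, was itself close to the floor. Since the 48 h difference is a bound, its size was not compared with that at 24 h.

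The second question was how TXNIP moved with culture time. In control cells it was 9.91-fold lower at 48 h than at 24 h (log2 difference -3.31, standard error 0.53), the most negative of the 10665 differences in that comparison. This fall was also one on which TXNIP was selected, so its rank here is likewise a description. The replicates gave -4.78, -3.13 and -2.02, and without replicate 1 at 48 h the difference was -2.55. The other probe sets gave 8.29-fold and 11.2-fold. In treated cells, which ended below the floor, it was at least 10.6-fold lower at 48 h than at 24 h, and the other probe sets gave at least 10.7-fold and 10.4-fold.

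The summed levels of the fibroblast markers and of the proximal tubule markers were lower with Kbr at both times, without overlap. The proximal tubule sum mainly reflects 1 gene, SLC3A1. It averaged 8.48 with vehicle and 7.14 with Kbr at 24 h, and 9.43 and 7.51 at 48 h. The log2 of the summed linear level of the 6 fibroblast markers was 12.47 to 12.98 in 24 h vehicle cultures and 11.83 to 12.31 with Kbr, and at 48 h it was 12.39 to 12.46 with vehicle and 10.55 to 11.08 with Kbr. It was thus lower with Kbr at each time. In vehicle cultures it was also lower at 48 h than at 24 h, with neighbouring ranges that did not overlap. COL1A2, COL3A1 and PDGFRB of this list were below the floor. The summed proximal tubule markers, of which only SLC3A1 was above the floor, were at 8.35 to 9.08 and 7.61 to 7.93 at 24 h, and at 9.08 to 9.96 and 7.87 to 8.11 at 48 h, vehicle first. The summed epithelial markers were at 14.7 to 14.9 and 14.3 to 14.6 at 24 h, and at 14.5 to 14.9 and 14.2 to 14.6 at 48 h. Among them the cadherin CDH1 averaged 7.09 with vehicle and 5.33 with Kbr at 24 h, and 7.32 and 5.82 at 48 h. The keratin KRT19 averaged 12.5 and 11.7 at 24 h, and 12.4 and 11.4 at 48 h. These showed the widest differences of the list. KRT8 averaged 12.21 and 11.68 at 24 h and 11.70 and 11.04 at 48 h, and KRT7 8.02 and 7.45, then 7.56 and 7.44. EPCAM averaged 13.13 and 12.96 at 24 h and 13.40 and 12.99 at 48 h. KRT18 averaged 13.18 and 13.02 at 24 h but went the other way at 48 h, 12.66 and 13.02. The part of all these markers in the values of TXNIP and its relatives was not tested.

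ARRDC1, which recruits the ESCRT protein TSG101 to the plasma membrane and drives budding of vesicles there, was lower in treated cells at both times. It did not pass the test of the fit without the replicate number, and passed with that number as a block. Its probe set 226405_s_at (chromosome 9, 137605686 to 137615360) stood at 8.38, 7.50 and 7.85 in 24 h vehicle cultures and at 7.52, 6.86 and 7.58 in 24 h Kbr cultures. The 48 h vehicle cultures were at 8.17, 7.47 and 8.34, and the 48 h Kbr cultures at 7.45, 7.10 and 7.33. The groups overlapped at 24 h and not at 48 h, where a lower group without overlap occurred in 24.9% of all tested genes. Replicate 2 was lowest in all 4 groups.

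The log2 difference of ARRDC1 was -0.59 at 24 h (standard error 0.28, limma adjusted p = 0.226) and -0.70 at 48 h (standard error 0.28, adjusted p = 0.0646). It was negative in 3 of 3 replicate pairs at each time. Same-numbered arrays deviated together, and with the replicate number as a block in limma the adjusted p was 0.0182 at 24 h and 0.00275 at 48 h. The 48 h difference also passed without replicate 1 of the 24 h vehicle cultures or replicate 2 of the 48 h vehicle cultures (adjusted p from 0.0205 to 0.197 over the 12 fits that left out 1 array). With time it differed by -0.022 in treated cells (standard error 0.28, adjusted p = 0.974, 95% interval -0.64 to 0.59) and by 0.083 in controls (standard error 0.28).

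ARRDC2, a less studied member of the family whose transcript is known to respond to nutrient and hormone signals, had its widest difference in replicate 2 at both times. Its probe set 226055_at (chromosome 19, 18001124 to 18014102) stood at 6.13, 5.94 and 6.14 in 24 h vehicle cultures and at 6.05, 4.84 and 5.77 in 24 h Kbr cultures. The 48 h values were 6.38, 6.03 and 6.31 in controls and 6.13, 4.81 and 6.03 in treated cells. Replicate 2 was lowest in each group. Treated cells were lower in 3 of 3 replicate pairs at both times, with differences of -0.078, -1.09 and -0.36 at 24 h and -0.24, -1.22 and -0.28 at 48 h. The log2 difference was -0.51 at 24 h (standard error 0.35, limma adjusted p = 0.416) and -0.58 at 48 h (standard error 0.35, adjusted p = 0.208, and 0.047 with the replicate block). Without treated replicate 2 of the same time it was -0.16 at each time. With time ARRDC2 differed by 0.10 in treated cells (adjusted p = 0.887, 95% interval -0.68 to 0.88) and by 0.17 in controls (standard error 0.35).

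ARRDC3, an adaptor known for directing beta-adrenergic receptors and the integrin ITGB4 to breakdown, was close to controls at 24 h and lower than them at 48 h. Its probe set 224797_at (chromosome 5, 91368631 to 91383317) stood at 8.76, 9.06 and 8.63 in 24 h vehicle cultures and at 8.69, 9.05 and 8.35 in 24 h Kbr cultures, which overlapped. At 48 h it stood at 9.03, 9.47 and 9.01 in controls and at 8.55, 8.70 and 8.74 in treated cells, which did not overlap. Of all tested genes, 24.9% were lower without overlap at that time. The log2 difference was -0.12 at 24 h (standard error 0.19, limma adjusted p = 0.756) and -0.50 at 48 h (standard error 0.19, adjusted p = 0.0513). With the replicate block the 48 h adjusted p was 0.00696, and over the other alternatives it lay on either side of the threshold.

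With time ARRDC3 was 0.35 higher at 48 h than at 24 h in controls (standard error 0.19, 95% interval -0.065 to 0.77, not tested), with 0.27, 0.41 and 0.38 in the replicates. In treated cells it differed by -0.035 (standard error 0.19, limma adjusted p = 0.932, 95% interval -0.45 to 0.38), and the replicates went both ways, by -0.15, -0.35 and 0.39. The effect at 48 h minus that at 24 h was -0.39 with a standard error of 0.27 and a 95% interval of -0.97 to 0.20.

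**Figure D2:**
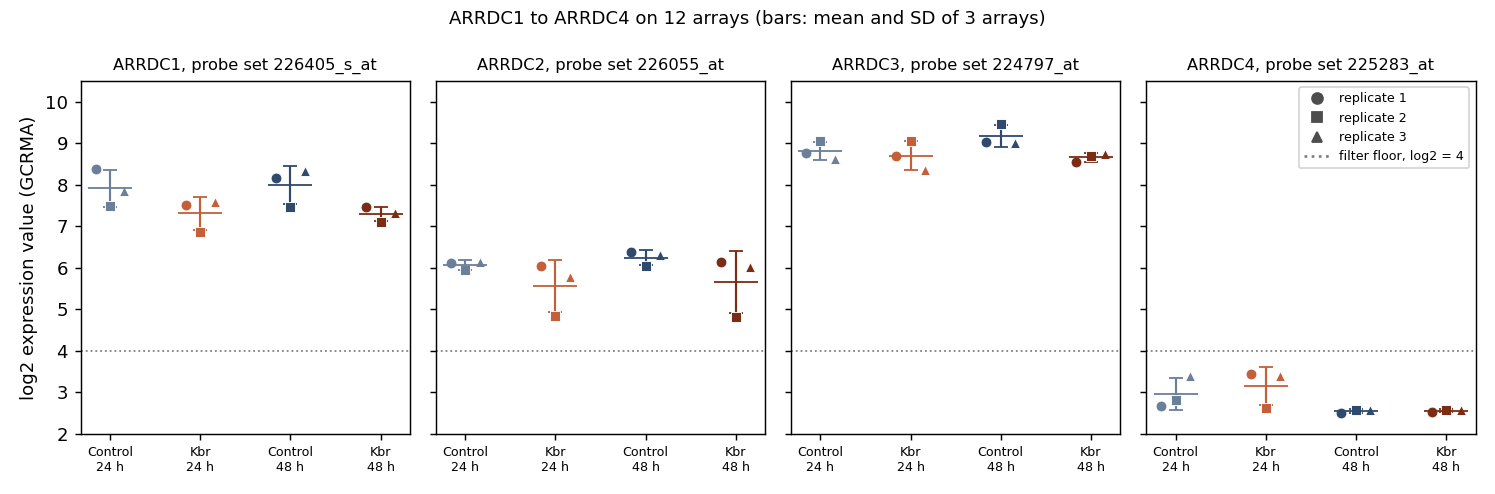
Log2 expression value (y axis) of ARRDC1, ARRDC2, ARRDC3 and ARRDC4 on 12 arrays by group (x axis), drawn as for TXNIP with points for arrays and bars for the mean and SD of 3 arrays. Treated replicate 2 sits low for ARRDC2 at both times, ARRDC3 groups separate at 48 h, and every ARRDC4 value lies below the floor of 4.

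ARRDC4, the closest relative of TXNIP in known control by glucose metabolites, was not detected above the floor in any group. Its probe set 225283_at (chromosome 15, 97960703 to 97973833) stood at 2.67, 2.81 and 3.40 in 24 h vehicle cultures, 3.45, 2.62 and 3.40 in 24 h Kbr cultures, 2.49, 2.57 and 2.56 in 48 h vehicle cultures and 2.53, 2.58 and 2.57 in 48 h Kbr cultures. No fold is given for it, since all values lie where GCRMA leaves no order.

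Of ARRDC1, ARRDC2 and ARRDC3, 0 of 3 passed limma's test at 24 h, where 5.74% of all genes passed, 0 of 3 at 48 h, where 42.8% passed, and 0 of 3 in treated cells over time, where 10.6% passed. At an unadjusted limma p under 0.05 the counts were 0, 2 and 0 of 3, the 2 being ARRDC1 and ARRDC3. The share of all genes at that looser threshold was not counted. At 48 h it is at least 42.8%, since genes past the adjusted test also pass it, so the 2 are not read as a result about the family. With the replicate block ARRDC1 passed at 24 h, beside 24.4% of all genes, and all 3 passed at 48 h, beside 57.5% of all genes and 28.8% in the lower direction. TXNIP is left out of these counts.

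**Figure D3:**
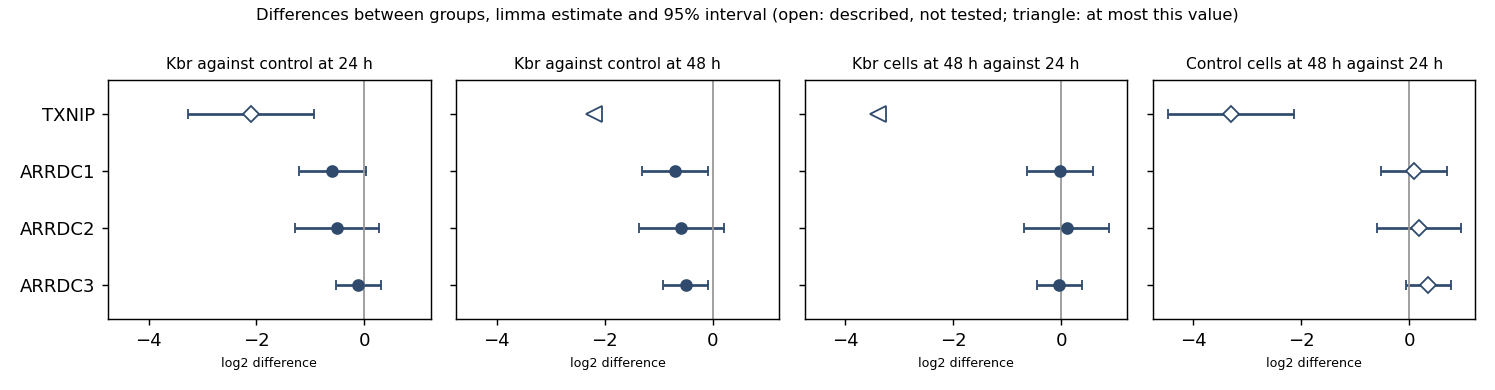
Log2 difference (x axis) with its 95% limma interval for TXNIP, ARRDC1, ARRDC2 and ARRDC3 (y axis) in 4 comparisons; filled circles were tested, open diamonds are described only, and open triangles are bounds for TXNIP against the floor, with no interval. TXNIP lies at or below -2.11 in all 4, while the ARRDC genes lie between -0.70 and 0.35.

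Over the 12 arrays TXNIP correlated with its relatives at Pearson's r of 0.33 for ARRDC1, 0.15 for ARRDC2 and 0.11 for ARRDC3. ARRDC1 and ARRDC2 correlated at 0.76, and at 0.63 after group means were removed, while ARRDC1 and ARRDC3 deviated from their group means in opposite directions (r = -0.82). These 12 points share 4 groups and 3 replicate numbers. The tested genes most like TXNIP over the same arrays were TM4SF4, a tetraspan membrane protein (r = 0.986), RBKS, the ribokinase (0.972), EPB41L3, a linker of membrane and cytoskeleton (0.962), SLC26A2, a sulfate transporter (0.96), and TUBA1A, an alpha-tubulin (0.958), where the median over 10664 genes was 0.025 and values below the floor were included. TM4SF4 averaged 6.75 ± 0.15 in 24 h vehicle cultures, 5.70 ± 0.30 in 24 h Kbr cultures, 4.56 ± 0.56 in 48 h vehicle cultures and 2.61 ± 0.15 in 48 h Kbr cultures (n = 3), the same order as TXNIP and likewise ending below the floor. The genes that ran most opposite were GPBP1L1 (r = -0.963), CFAP97 (-0.959) and ATF4, a transcription factor of the amino acid and stress response (-0.959). ATF4 averaged 12.4 ± 0.10, 12.8 ± 0.062, 12.8 ± 0.15 and 13.4 ± 0.096 in those groups, a far smaller range. When each replicate number was centred on its own mean, 2 of the 5 most similar genes stayed among the 5.

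The partners of the family were then described as lists, by the number that passed limma's test with adjusted p-values over all genes and by the median log2 difference, which over all genes was -0.016 at 24 h and -0.0038 at 48 h. Each count stands beside 5.74% of all genes that passed at 24 h and 42.8% at 48 h, or 24.4% and 57.5% with the replicate block. A gene that rose or fell was higher or lower in treated than in control cells of the same time. At 48 h without the block the shares of the cargo, FOXO and inflammasome lists lay close to that of all genes. Those of the Mondo, glucose, NEDD4, ESCRT and arrestin-fold lists lay below it. Those of the thioredoxin, carbohydrate-response and glucocorticoid lists lay above it. With the block the glucose, ESCRT, FOXO and inflammasome lists also lay above the share of all genes. The Mondo, NEDD4, cargo and arrestin-fold lists lay below it, and the thioredoxin, carbohydrate-response and glucocorticoid lists stayed above it. The lists are small and were chosen with earlier results known, so these shares were not tested. Thioredoxin, the protein TXNIP binds, was encoded by a transcript that rose. Of 9 tested genes of the thioredoxin system 1 rose and 0 fell at 24 h, namely the reductase TXNRD1 (log2 difference 1.23, adjusted p = 0.00168). At 48 h 3 rose and 2 fell, with a list median of -0.19. TXN itself rose 1.77-fold (adjusted p = 0.000166) and TXNRD1 3.75-fold. The kinase MAP3K5, which thioredoxin holds inactive, fell (log2 difference -0.90), as did the peroxiredoxin PRDX2 (-0.73), and PRDX1 rose (0.43). Averaging all probe sets of a gene made the difference of TXNRD1 0.62 at 24 h and 0.95 at 48 h, and that of PRDX2 -0.29, with the calls kept. With the block TXN also rose at 24 h (adjusted p = 0.0369) and MAP3K5 fell (0.0201), and 4 fell at 48 h, with TXN2 and PRDX3 added.

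Among transcription factors around MondoA, MLXIPL was below the floor. None of 9 tested genes of the Mondo, MLX and MAX network passed at 24 h, and at 48 h 1 rose and 2 fell (median -0.046). These were MXD1, a MAX partner (log2 difference 1.57), and MXD3 (-0.84) and MNT (-0.91), which also pair with MAX or MLX. With probe sets averaged MXD1 differed by 0.89 and MNT by -0.46, and with the block MXD3 also fell at 24 h (adjusted p = 0.0322). In the list of carbohydrate-response targets, mostly enzymes of fatty acid synthesis, 2 of 9 fell at 24 h and 6 of 9 at 48 h and none rose. The medians were -0.26 and -0.46, where 20.8% of all genes were called lower at 48 h. PKLR, THRSP, GPD1 and G6PC1 of this list were below the floor. At 48 h FASN (-0.59), KLF10 (0.09) and MID1IP1 (0.46) did not pass. The part of glucose metabolites in these differences was not tested. ACACB, an acetyl-CoA carboxylase, was 2.50-fold lower at 48 h (adjusted p = 0.00877), and SCD (-0.48), ACLY (-0.46), PNPLA3 (-0.47) and ELOVL6 (-0.42) fell as well. The sixth was ACACA (-0.46), whose 2 probe sets disagreed: with their mean the difference was 0.0404. With probe sets averaged ACACB differed by -0.59 and ELOVL6 by -0.73. With the block 4 fell at 24 h, FASN and SCD being added, and at 48 h 7 fell, with FASN, and 1 rose, MID1IP1 (adjusted p = 0.00396).

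GLUT1, the glucose transporter that TXNIP restrains, is encoded by SLC2A1. At 48 h SLC2A1 was 2.54-fold higher in treated than in control cells (log2 difference 1.34, limma adjusted p = 0.000147). At 24 h its difference was 0.37 (adjusted p = 0.18). SLC2A1 averaged 7.45 at 24 h and 6.84 at 48 h in controls, and 7.82 and 8.18 in treated cells. With its probe sets averaged the 48 h difference was 0.68, and the call was kept. Of 11 genes of glucose uptake and upper glycolysis 0 passed at 24 h, while 2 rose (SLC2A1 and PFKP, 0.46) and 1 fell (PFKM, -0.41) at 48 h, with a median of 0.24. With the block PFKL fell at 24 h (adjusted p = 0.0378), and 5 rose and 3 fell at 48 h, adding HK2, GPI and PFKFB3 and PFKL and PFKFB2. Among 5 tested cargo genes of alpha-arrestins, ITGB4 fell at 24 h (-1.40, adjusted p = 0.0185) and at 48 h (-2.00, adjusted p = 0.00034), and SLC2A1 was the 1 that rose.

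Of 9 NEDD4-family ligases and adaptors NEDD4 passed, rising at 48 h (log2 difference 0.80, adjusted p = 0.0021; list median 0.19), and with the block NEDD4L rose too (0.29, adjusted p = 0.00975). None of 3 ESCRT partners and none of 4 other arrestin-fold genes passed at either time without the block. With it VPS4A (adjusted p = 0.0496) and VPS4B (0.0458) rose at 48 h, and of the arrestin-fold genes VPS26A rose (0.0186) and VPS26B fell (0.0346). Glucocorticoid-induced genes were included because the medium held hydrocortisone and TXNIP is known to respond to that hormone. Of 8 tested none passed at 24 h (2 fell with the replicate block, FKBP5 and TSC22D3), and 4 fell and 1 rose at 48 h, with a median of -0.38. SGK1 fell by 1.32 on the log2 scale (adjusted p = 4e-05), TSC22D3 by 1.32, FKBP5 by 0.73 and CEBPD by 0.65, and ERRFI1 rose by 0.71. With probe sets averaged TSC22D3 differed by -0.78 and with array weights by -0.85, and with the block DUSP1 also rose at 48 h (adjusted p = 0.00665).

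Targets of FOXO factors went both ways. Of 11, TNFSF10, a death ligand, fell at 24 h (-1.04, adjusted p = 0.0387). At 48 h 3 fell, TNFSF10 (-2.24), SESN1 (-0.88) and BCL6 (-0.64), and 2 rose, GADD45A (1.69) and FBXO32 (1.38), with a list median of -0.24. With the block FBXO32 also rose at 24 h (adjusted p = 0.0188), and CCNG2 and KLHL24 also fell at 48 h. Of 5 tested inflammasome genes, a complex that TXNIP is known to bind through NLRP3, none passed at 24 h. At 48 h IL1B (-1.70) and PYCARD (-0.39) were lower in treated than in control cells. IL1B averaged 3.98 in 24 h vehicle cultures, just below the floor, and 5.78 in 48 h vehicle cultures. In Kbr cultures it averaged 4.16 at 24 h and 4.08 at 48 h. Without replicate 2 of the 48 h controls IL1B differed by -1.12. With the block IL18 rose and GSDMD fell at 24 h, and at 48 h IL18 rose and GSDMD and NEK7 fell as well. NLRP3 and CASP1 were below the floor, and the treated mean of IL1B, 4.08, was close to it.

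At 24 h, of the listed genes that passed, TXNRD1 alone kept its call whichever of the 12 arrays was left out. ITGB4 and ACACA were lost without any treated 24 h array or vehicle replicate 1 or 2 at that time (limma adjusted p up to 0.0831 and 0.097), and TNFSF10 was lost without those or without control replicate 3 or treated replicate 2 at 48 h (up to 0.127). The call of ACLY failed when replicate 1 or 2 of the Kbr arrays, or replicate 1 of the vehicle arrays, was left out at 24 h (up to 0.071). At 48 h the exceptions, all arrays being of 48 h unless stated, were these. ELOVL6 was lost without any control or treated replicate 1 or 2 (up to 0.126), and PFKM without control replicate 1 or 2, any treated array or treated replicate 2 at 24 h (0.146). PFKP was lost without control replicate 2 or treated replicate 1 or 3 (0.102), and PRDX1 without control replicate 1 or treated replicate 2 or 3 (0.0658). ERRFI1 was lost without control replicate 2 or 3 or treated replicate 1 or 2 (0.106), and TSC22D3 without control replicate 1 or 2 or treated replicate 1 or 3 (0.133). BCL6 was lost without replicate 1 of either group (0.0556), and PYCARD without control replicate 1 or 3 or treated replicate 1 or 2 (0.125). Other settings ended calls of the same genes. Without the filter TNFSF10 was lost at 24 h (adjusted p = 0.0898), and at 48 h ELOVL6, ERRFI1, PFKM, PFKP, PYCARD and TSC22D3 were lost (0.0574 to 0.0977). With only the groups compared ACACA was lost at 24 h (0.0557), and at 48 h the same 6 genes and PRDX1 were lost (0.0581 to 0.114). With probe sets averaged ACACA was lost at 24 h (0.0883) and PFKP, at a difference of 0.27, at 48 h (0.0597). TNFSF10 at 24 h was lost with single probe sets (0.0502), PFKM with median centring (0.0522), and PFKP (0.0763) and TSC22D3 (0.103) with array weights.

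**Figure D4:**
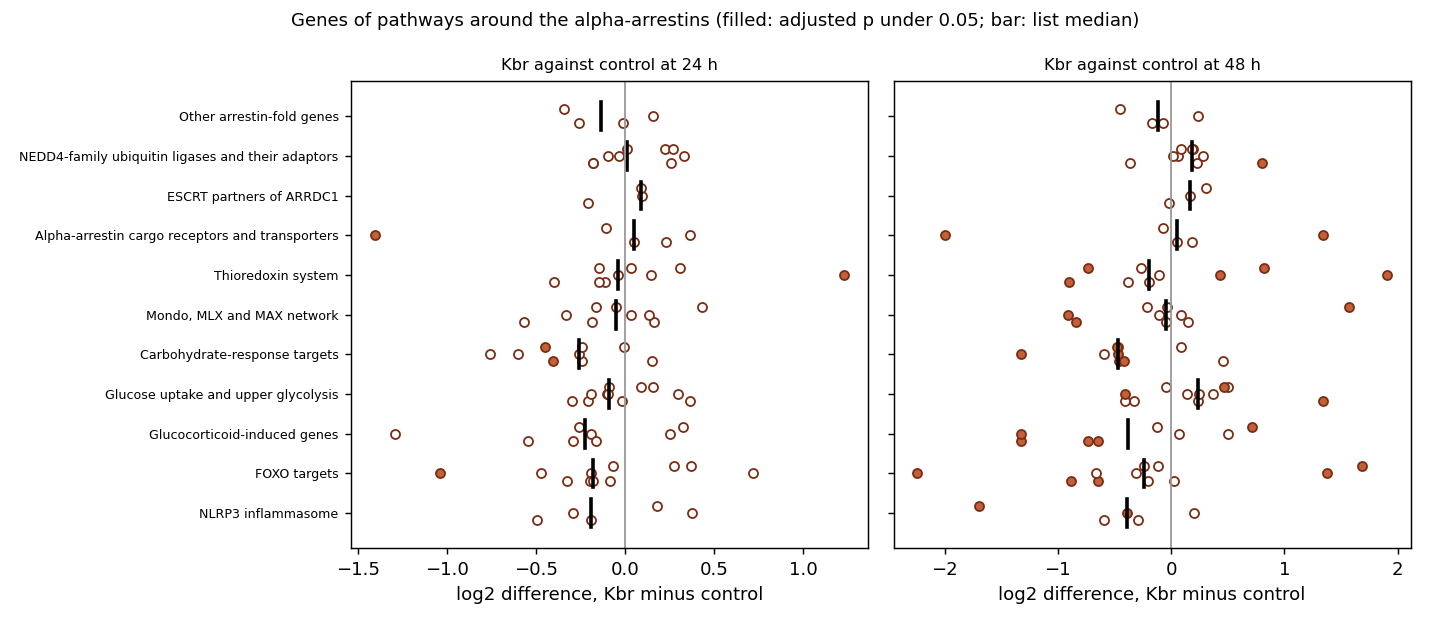
Log2 difference between treated and control cells (x axis) of each tested gene in 11 lists (y axis) at 24 h and at 48 h; filled points passed limma's test, and black bars are list medians. Filled points are few at 24 h, and at 48 h the carbohydrate-response list lies mostly below 0, with a median of -0.46.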

How the data were processed

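Expression was measured in 12 HK-2 cultures, 3 in each of 4 groups taken from the labels. The authors deposited log2 expression values for 54675 probe sets, and the submitters' processing notes name GCRMA, without settings, version or the set of arrays normalized together. That the scale is log2 was read from the values, whose highest per array was 16.0 to 16.2. Of the probe sets 41091 carried exactly 1 symbol, 1801 several and 11721 none, and each gene was represented by its probe set of highest mean. Genes with a log2 value above 4 on at least 3 arrays were kept. Group means were fitted to all 12 arrays with limma 3.58.1 in R 4.3.3 (lmFit, eBayes) and two-sided p-values adjusted by Benjamini-Hochberg over 10665 genes, with a threshold of 0.05. The fit was also run on simulated data with noise independent between arrays. The real arrays of the same replicate number deviated together, so that run is no check of the calls given here.

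The members and lists were chosen with earlier results of these data known. Named genes were the members, the 5 genes most like TXNIP and the 3 most opposite by Pearson's r, and from each list the 2 with the smallest p in each treatment comparison, with others where a small count needed its names. Deviations from group means correlated at 0.279 to 0.701 over 18 pairs of the same replicate number in different groups, and each of the 12 arrays correlated best with an array of its own number, so the numbers, which come from the labels, pair the arrays. Alternatives were the replicate block, no filter, a floor of 6, repeated quantile normalization, median centring, averaging over probe sets, single probe sets, fits of the compared groups alone, robust variance with a trend on intensity, array weights (statmod 1.5.0) and leaving out each array. Promoter windows came from RefSeq (GRCh38.p14), which held all 5 members.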

Additional observations from a re-analysis of the deposited data

How the results depend on the processing

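TXNIP was lower in all 4 comparisons under every alternative run. With 1 array left out its difference ranged from -2.41 to -1.82 at 24 h and from -3.80 to -2.55 in controls over time, and its bounds from 3.26-fold to 7.77-fold at 48 h and from 8.56-fold to 12.8-fold in treated cells over time. TXNIP carries no test, so the calls that follow are those of ARRDC1, ARRDC2 and ARRDC3 alone. With the replicate block ARRDC1 passed at 24 h and all 3 passed at 48 h. Under every other alternative 0 of the 3 passed at 24 h. At 48 h ARRDC3 passed with a floor of 6, median centring, the mean of probe sets, only the groups compared, or a trend. After repeated quantile normalization ARRDC1 and ARRDC3 passed, and with array weights all 3 did. Without a filter and with single probe sets 0 of the 3 passed at 48 h, and with 1 array left out at most 1 did. In treated cells over time 0 of the 3 passed under any alternative, and in controls over time they were not tested. Of the 5 genes most like TXNIP, 2 stayed among the 5 when each replicate number was centred on its own mean.

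The adjusted p of ARRDC3 at 48 h, 0.0513, was 0.0458 with a floor of 6, 0.0428 after quantile normalization, 0.0459 with median centring, 0.0489 with the mean of probe sets, 0.0456 with only the groups compared, 0.0473 with a trend and 0.0481 with array weights, but 0.114 without the filter, 0.0596 with single probe sets, and 0.0332 to 0.179 with 1 array left out. That of ARRDC1, 0.0646, was 0.0481 after quantile normalization and 0.0367 with array weights, 0.157 without the filter and 0.0575 to 0.0767 under the other settings save the block. Array weights gave 0.0284 for ARRDC2, and the other settings save the block 0.194 to 0.418. With array weights ARRDC2 over time in treated cells turned to -0.38, and with the mean of probe sets ACACA at 48 h turned to 0.0404. The signs of the differences near 0 turned with 1 array left out: ARRDC3 at 24 h ranged from -0.29 to 0.056. In treated cells over time the ranges were -0.25 to 0.11 for ARRDC1, -0.25 to 0.53 for ARRDC2 and -0.21 to 0.14 for ARRDC3. In controls over time ARRDC1 ranged from -0.12 to 0.34, and for the 48 h effect minus the 24 h effect ARRDC1 ranged from -0.37 to 0.10 and ARRDC2 from -0.43 to 0.35.

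Over all genes the replicate block moved the count past the test from 612 to 2602 at 24 h, from 1135 to 3273 in treated cells over time, from 351 to 2404 in controls over time and from 15 to 785 for the difference between times. Without a filter the last 3 were 726, 185 and 32, and with only the groups compared those over time were 224 and 9. Array weights gave 1388 at 24 h, 3317 in treated cells over time and 308 for the difference between times, which was 9 with a floor of 6, 8 with median centring and 3 with the mean of probe sets. Single probe sets gave 8292 of 22368 at 48 h, against 4564 of 10665 genes. With 1 array left out the counts ranged from 81 to 769 at 24 h, 285 to 2204 in treated cells over time, 21 to 555 in controls over time and 0 to 467 for the difference between times. With the mean of probe sets the level of ARRDC1 was 5.19, 4.89, 5.23 and 4.88 in 24 h controls, 24 h treated cells, 48 h controls and 48 h treated cells, and that of TXNIP in 48 h treated cells was 3.11. Causes of these moves were not tested. Signal over background limits ARRDC4 and the 48 h treated level of TXNIP.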
